A study of Rattus norvegicus with 39 samples.

Results

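Liver lobes of rats reperfused for 6 hr after a brief warm ischemia were compared with livers of sham-operated rats killed at the same time, over every probe set for a coding gene. The comparison used 6 of the 39 arrays of the series, 3 of reperfused lobes and 3 of 6 hr shams, each from a different animal. The animals of the study were male Wistar rats of 5 to 6 weeks, an outbred laboratory stock, and surgery was done mid-morning under isoflurane. In the reperfused animals, the vessels of the left and median lobes, 70% of the liver, were clamped for 30 min, and RNA was taken from these lobes together after 6 hr of flow. The 6 hr shams had the same incision and handling of the liver with no interruption of blood flow, and the lobe sampled from them is not given in the sources used here. Both groups therefore shared anesthesia, laparotomy and the hours after surgery, and differed in the clamp. The right lobes of the same clamped animals, whose flow was not stopped (3 arrays, called non-ischemic here), livers of 3 unoperated rats and the arrays of the 2 hr reperfused lobes and 2 hr shams were used only to place the values. The methods of the study do not describe the unoperated rats as a group. Their handling and time of killing are not given in the sources used here.

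Hepatic ischemia-reperfusion deprives the liver of oxygen and nutrients and then returns them, and the returning flow is known to start stress, inflammatory and repair programs. Hepatocytes answer protein damage through heat shock factors, which switch on cytosolic chaperones, and they adjust lipid and sterol enzymes through the sterol-sensing factors encoded by Srebf1 and Srebf2. Growth of ribosomes in the nucleolus precedes growth of the tissue. The shams set the 6 hr lobes against surgery and handling without the clamp. Where the shams themselves departed from unoperated livers, a difference from them need not be a departure of the reperfused lobes from unoperated liver.

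Levels are given as log2 of the deposited intensity of a probe set, so that a difference of 1 is a doubling, and they can be compared between arrays but not between genes. The summed intensity of 9 hepatocyte markers, carried by the brightest of them, was 3540517 to 3772082 in the reperfused lobes against 3561179 to 3657874 in the shams, with none under a mean log2 value of 5. Of these markers 1 passed, the transcription factor Hnf4a, which fell by 0.56 (q = 0.0134) and was not called without sham replicate 2 or 3. The arrays of reperfused replicates 1 and 2 lay close together (Euclidean distance 45.7 over all probe sets), whereas reperfused replicate 3 lay at 86.1 and 79.8 from them. The 3 shams were 42.4 to 48.7 apart. In reperfused replicate 3, 150 probe sets were more than 2 log2 units above both other reperfused arrays and 33 were as far below. The summed intensity of 12 neutrophil markers was 392 to 1466 in the reperfused lobes against 374 to 487 in the shams, with 4 and 7 of the 12 at a mean log2 under 5. The sums were 31458 to 44261 and 30302 to 51751 for 12 macrophage markers, 33941 to 37455 and 31018 to 41861 for 12 endothelial markers, 7162 to 8926 and 13504 to 15582 for 12 stellate cell and fibroblast markers, and 366 to 4171 and 318 to 366 for 7 cholangiocyte markers. For 13 markers of T, B and NK cells they were 3233 to 4539 and 3000 to 4346, and for 8 of red blood cells and platelets 777 to 1245 and 667 to 1739. The sums follow the brightest probe sets: the median difference of the stellate cell and fibroblast markers was -0.10, with Pdgfrb higher by 1.10 (q = 0.04) and Lrat, which stores retinol, lower with a difference of -1.67 (q = 0.029). Neither was called without any 1 of the shams, nor Pdgfrb without reperfused replicate 2 or Lrat without reperfused replicate 1. In whole lobes, fewer cells of a type and less RNA per cell cannot be told apart, and the part of these markers in the results below was not tested.

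At 6 hr, genes of sterol and fatty acid synthesis were lower in the reperfused lobes than in the shams, and genes of cytosolic protein folding, the nucleolus, splicing and the cytoskeleton were higher. By limma at a q-value below 0.05, 1414 of 23409 coding probe sets rose (6.04%) and 851 fell (3.64%). With 1 probe set for each of 18859 genes, the shares were 6.27% and 3.74%. Among the 10780 of these genes with a mean log2 level of at least 5 over the 39 arrays, they were 10.8% and 5.79%. The shares of the gene lists below stand beside these values. The arrays of the 2 groups did not overlap in 33.7% of all coding probe sets. The median size of the difference was 0.78 among the higher and 0.81 among the lower probe sets, and 419 and 308 exceeded 1. The split depended on scaling: with quantile-normalized arrays, 887 were higher and 1038 lower, so that 46.1% of the calls were rises against 62.4% in the values as deposited. The median difference over all probe sets was -0.02 as deposited and 0.01 after quantile normalization. The count of called probe sets was 3295 without reperfused replicate 3, the array that lay apart. It was 403 without sham replicate 2, 712 without reperfused replicate 2, 778 without sham replicate 3, 1079 without sham replicate 1 and 1316 without reperfused replicate 1.

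**Figure D1:**
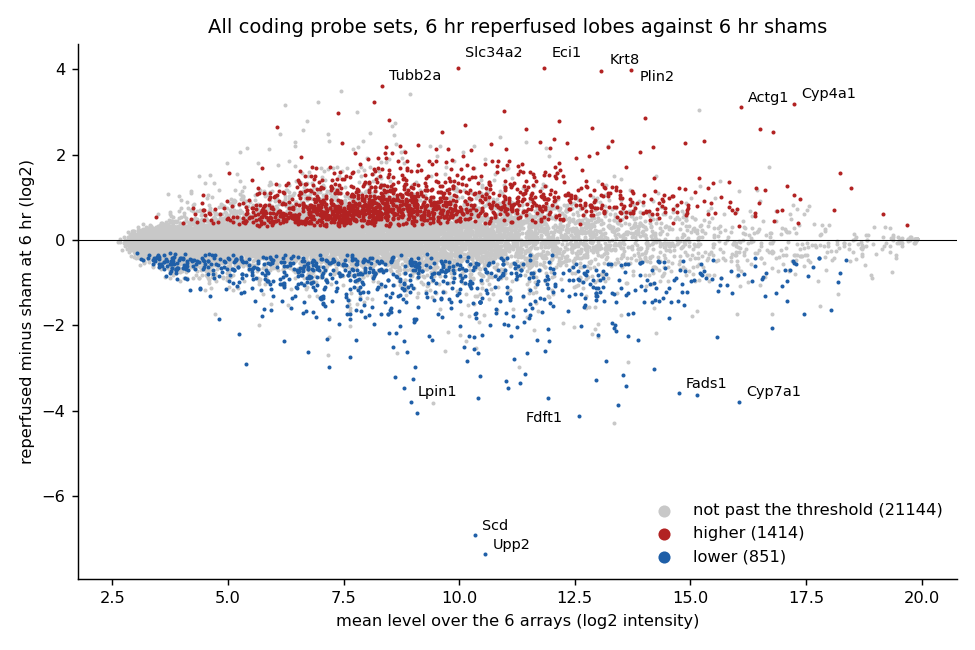
Each point is 1 of 23409 coding probe sets, with its mean log2 intensity over the 6 arrays on the x axis and the log2 difference, reperfused minus sham at 6 hr, on the y axis. Red points (1414) passed upward and blue points (851) downward in limma's test, and the differences reach 4.02 upward and 7.36 downward.

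The difference with the greatest size was that of Upp2, which encodes uridine phosphorylase 2, a liver enzyme that breaks down uridine. Its levels were 6.41, 6.76 and 7.47 in the reperfused lobes against 13.22, 14.77 and 14.72 in the shams. The groups were far apart, with a log2 difference of -7.36 (SE 0.485, q = 0.00477). The 3 unoperated livers had 6.45, 6.75 and 10.35, so that the shams stood above the unoperated livers by 6.38 (q = 0.0111), and the reperfused lobes lay at the level of 2 of the 3 unoperated livers. Among the 12 greatest rises was Slc34a2, a sodium-phosphate cotransporter, at 11.26, 11.53 and 13.17 in the reperfused lobes against 8.43, 8.12 and 7.34 in the shams. It rose by 4.02 (SE 0.55, q = 0.0121, and q = 0.0594 without sham replicate 2). The Slc34a2 shams were lower than the unoperated livers, with a log2 difference of -3.26 (q = 0.00124). The mean was 11.99 in the reperfused lobes and 11.23 in the unoperated livers. Socs2, a feedback inhibitor of growth hormone signaling, had 6.59, 6.5 and 8.11 in the reperfused lobes against 9.93, 11.28 and 10.39 in the shams. It fell by 3.47 (SE 0.532, q = 0.016), and the q-value was 0.0603 to 0.0654 without reperfused replicate 2, sham replicate 2 or sham replicate 3.

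**Figure D2:**
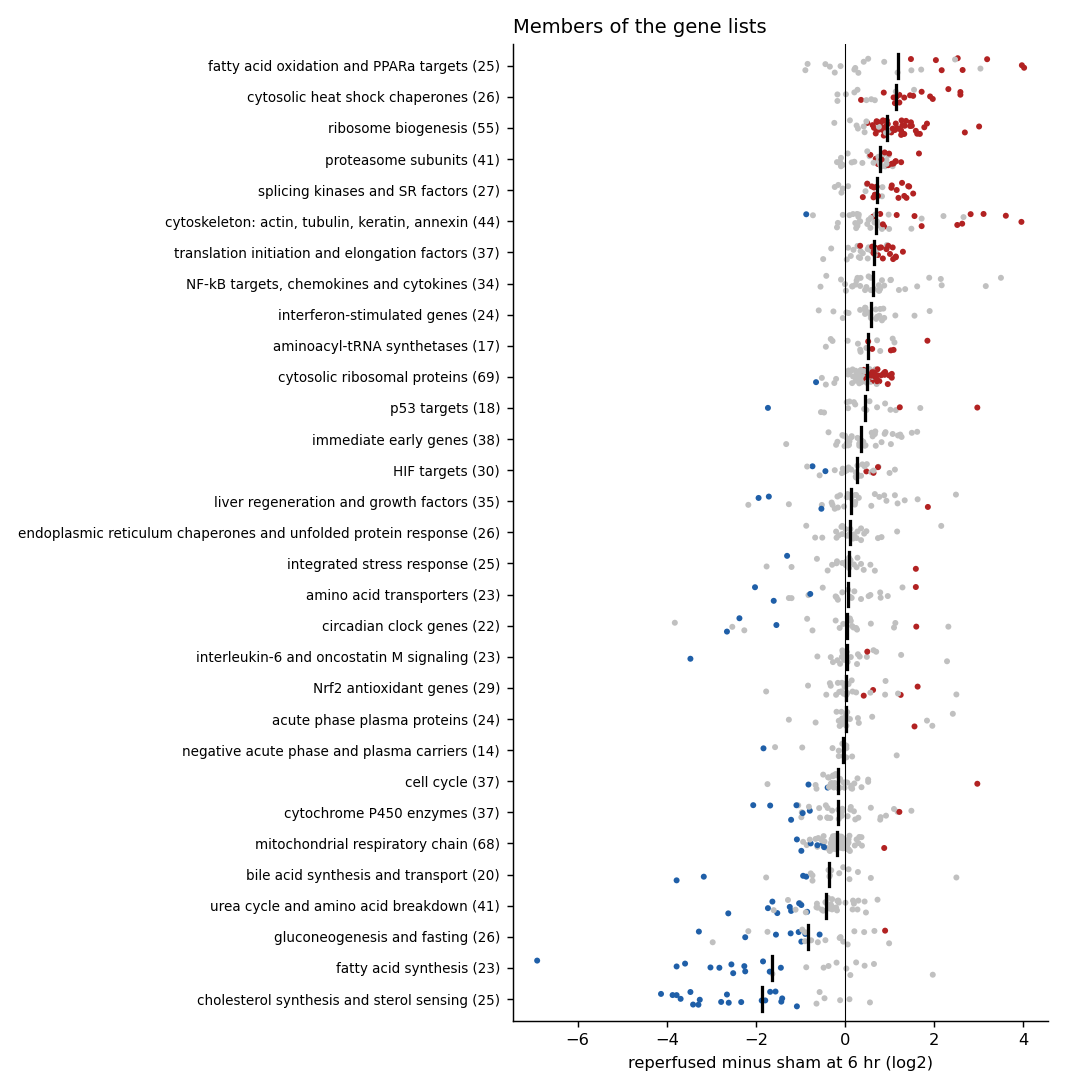
Each point is a measured member of a gene list, placed on the x axis by its log2 difference, reperfused minus sham at 6 hr, with the number of members in parentheses and the list's median as a black bar. Red and blue points passed the threshold upward and downward, and the medians run from -1.87 for cholesterol synthesis to 1.18 for fatty acid oxidation.

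Transcripts of most genes on the list of cholesterol synthesis and sterol sensing were lower. The list also holds sterol sensors, sterol exporters and Lpin1, which is on the fatty acid synthesis list too. Of 25 measured members, 19 fell (76%) and none rose, with a median difference of -1.87. Of all genes with a mean log2 level of at least 5, 5.79% were lower, and the median of those genes was 0.10. Fdft1 encodes squalene synthase, which commits isoprenoid units to sterols, and had 9.24, 11.77 and 10.59 in the reperfused lobes against 14.21, 14.56 and 15.21 in the shams. The difference was -4.13 (SE 0.636, q = 0.0162). Sqle, squalene epoxidase, had 7.37, 9.42 and 8.91 against 11.92, 12.09 and 12.76, a difference of -3.69 (SE 0.541, q = 0.0142). Lss, which closes the sterol rings, had 8.86, 9.32 and 9.78 against 12.57, 12.46 and 13.35. It fell by 3.47 (SE 0.317, q = 0.00559). Cyp51, the lanosterol demethylase, fell by 3.41 (SE 0.384, q = 0.00849), and Msmo1, a sterol methyl oxidase of the next steps, fell by 3.87 (SE 0.812, q = 0.0375). In each of these enzymes, reperfused replicate 1 was the lowest of the 6 arrays.

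Of the genes that sense sterols, Insig1 and Srebf2 fell and Scap did not pass. Insig1, which holds the sterol-sensing complex in the endoplasmic reticulum, had 7.9, 10.77 and 9.45 in the reperfused lobes against 12.77, 12.79 and 12.45 in the shams (difference -3.29, SE 0.677, q = 0.0356). Srebf2, the factor that drives the sterol enzymes, fell by 1.87 (SE 0.291, q = 0.0165). Abcg5 and Abcg8, which pair to export sterols into bile, also fell, by 1.56 and 1.68. Insig1 was not called without any 1 of the shams, Srebf2 without sham replicate 2 or reperfused replicate 2, and Abcg5 without any 1 array other than sham replicate 2, while Abcg8 was called whichever array was left out. The members that did not pass were Scap, Dhcr7, Pmvk, Fdps, Abcg1 and Abca1, at -0.64 to 0.56. Without sham replicate 2 the list had 10 lower members, and without sham replicate 3 it had 12. Fdft1 and Sqle missed the threshold without either of these shams (q = 0.0581 to 0.0706), and Msmo1 missed it without any 1 of the shams or reperfused replicate 2 (q = 0.0596 to 0.121). Against the 12 shams of all times, 9 members were lower, and Sqle, Lss and Cyp51 did not pass.

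Genes of fatty acid synthesis were lower as well, with 12 of 23 members down (52.2%), none up and a median of -1.63. Of all genes with a mean level of at least 5, 5.79% were lower and 10.8% higher. In the shams themselves 9 of the 23 were lower than in unoperated livers, with a median of -0.92. Scd, the stearoyl-CoA desaturase that makes oleate, had 5.84, 6.9 and 7.9 in the reperfused lobes against 14.88, 13.57 and 12.93 in the shams. The log2 difference was -6.91 (SE 0.668, q = 0.00587), a 121-fold lower intensity, and the unoperated livers (14.85, 15.39 and 16.06) lay with the shams. Fads1, the delta-5 fatty acid desaturase, had 13.51, 12.52 and 12.85 against 16.54, 16.52 and 16.59, and fell by 3.59 (SE 0.244, q = 0.00477). Lpin1, a phosphatidate phosphatase of triglyceride synthesis that is also a target of the sterol-sensing factors, had 7.16, 7.24 and 6.77 against 10.91, 11.07 and 10.55 and fell by 3.78 (SE 0.183, q = 0.00342). The calls of Scd, Fads1 and Lpin1 held whichever array was left out. The core enzyme Acaca, acetyl-CoA carboxylase, fell by 2.55 (SE 0.317, q = 0.00988), Fasn, fatty acid synthase, fell by 2.51 (SE 0.456, q = 0.0255), and the factor Srebf1 fell by 1.84 (SE 0.355, q = 0.0298). The calls of Fasn and Srebf1 were lost without any 1 of the shams or reperfused replicate 1. Thrsp, a nuclear protein that promotes lipogenesis, fell by 3.02 (SE 0.452, q = 0.0152). Its q-value was 0.0562 to 0.07 without any 1 sham or reperfused replicate 2. Gpam, the first acyltransferase of triglyceride synthesis, had a difference of 1.97 (q = 0.234), with 13.71, 14.07 and 10.99 in the reperfused lobes. The list had 7, 6 and 7 lower members without sham replicates 1, 2 and 3, and against the 12 shams of all times it had 5 lower members and 1 higher. Without reperfused replicate 3 it had 13 lower and 3 higher.

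**Figure D3:**
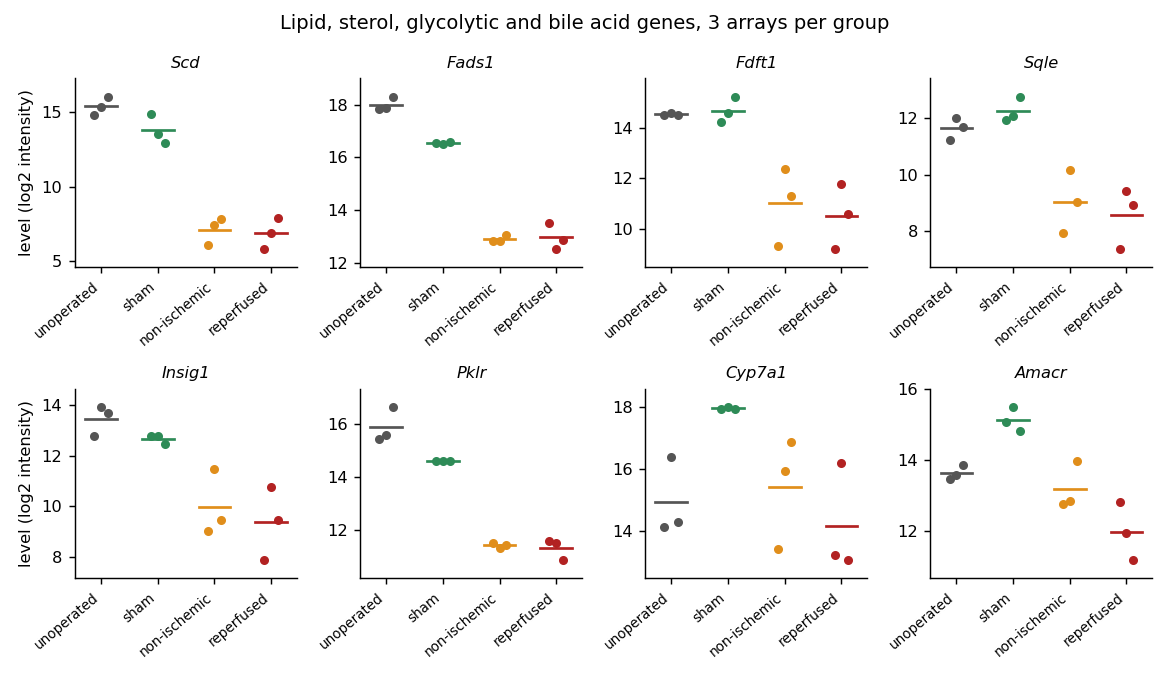
Log2 intensity (y axis) of 8 genes in 3 arrays each of unoperated livers, 6 hr shams, 6 hr non-ischemic lobes and 6 hr reperfused lobes (x axis), with points for arrays and a bar for the mean. For Scd the reperfused and non-ischemic lobes sit between 5.84 and 7.9 and the shams between 12.93 and 14.88, and for Cyp7a1 the shams (17.93 to 17.98) stand above the unoperated mean of 14.94.

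Genes of fatty acid oxidation and other targets of PPARa, the receptor by which hepatocytes sense fatty acids, were higher than in the 6 hr shams. Of 25 members, 8 rose (32%) and none fell, with a median of 1.18, beside 10.8% of all genes with a mean level of at least 5. In the shams themselves 8 of the 25 were lower than in unoperated livers and none higher, with a median of -0.38. Eci1, a mitochondrial enoyl-CoA isomerase that lets unsaturated fatty acids be oxidized, had 14.25, 14.11 and 13.2 in the reperfused lobes against 9.27, 10.71 and 9.52 in the shams. It rose by 4.02 (SE 0.45, q = 0.00845). Plin2, which coats lipid droplets, had 15.1, 15.05 and 16.92 against 11.79, 12.08 and 11.3, a rise of 3.97 (SE 0.531, q = 0.0117). Cyp4a1, a fatty acid omega-hydroxylase, had 18.86, 19.18 and 18.43 against 14.83, 15.79 and 16.29, a rise of 3.19 (SE 0.393, q = 0.00988). Without sham replicate 2, Plin2 and Cyp4a1 had q-values of 0.0537 and 0.0515. Acot1, a cytosolic acyl-CoA thioesterase, rose by 2.64 (SE 0.294, q = 0.00845), while Ehhadh, a peroxisomal enzyme, had a difference of 3.04 that did not pass. The receptor Ppara itself had -0.89. The choice of shams turned this list: against the 12 shams of all times, 0 members were higher, 3 were lower and the median was 0.18. The number of higher members was 13 without reperfused replicate 3, and 5 without reperfused replicate 1, sham replicate 1 or sham replicate 2.

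Most members of the list of cytosolic chaperones were higher, with 16 of 26 up (61.5%), none down and a median of 1.15. The list also holds the mitochondrial chaperonin pair Hspd1 and Hspe1. Of all genes with a mean level of at least 5, 10.8% were higher and 5.79% lower. In the shams themselves 10 of the 26 were higher than in unoperated livers and none lower, with a median of 0.23. Hsp90aa1, the inducible form of the chaperone Hsp90, had 17.85, 17.92 and 17.63 in the reperfused lobes against 15.22, 15.12 and 15.3 in the shams. The groups were tight and apart, with a rise of 2.59 (SE 0.106, q = 0.00256). Chordc1, a co-chaperone of Hsp90, had 12.87, 13 and 12.34 against 10.35, 9.96 and 10.12, and rose by 2.59 (SE 0.199, q = 0.00477). Hsph1, which exchanges nucleotide on Hsp70, had 14.64, 14.94 and 13.78 against 12.18, 12.06 and 12.18, a rise of 2.32 (SE 0.288, q = 0.00994, and q = 0.0546 without sham replicate 2). Hsph1 was already higher in the shams than in the unoperated livers, by 2.25 (q = 0.00152). Bag3, which links chaperones to autophagy, rose by 1.97 (SE 0.272, q = 0.0124). Within the 16, the mitochondrial pair of Hspd1 and Hspe1 rose by 1.33 and 1.46. Neither was called without sham replicate 2, sham replicate 3 or reperfused replicate 2. Zfand2a, a zinc finger protein of the proteasome that is induced by arsenite and heat, was not on the list and rose by 3.22 (SE 0.586, q = 0.0256). Its q-value was 0.0769 to 0.0927 without any 1 sham or reperfused replicate 2. Hspa8, the constitutive Hsp70, had 19.92, 19.88 and 19.81 against 19.54, 19.49 and 19.5, near the top of the scale, where the highest intensity deposited was 999961. Its rise of 0.36 (q = 0.0357) was not called after quantile normalization or without any 1 array other than reperfused replicate 3. The number of higher members was 5 without sham replicate 2, 7 without reperfused replicate 2, 9 without sham replicate 3 and 10 without sham replicate 1.

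The promoters of these genes are shown because heat shock factors bind repeats of the letters GAA and its reverse complement, which could be looked for in the sequence. A heat shock element was taken as GAANNTTC or TTCNNGAA on either strand, 2 patterns that overlap in a longer array, in the 300 bases from 250 before to 50 after the start of each gene in RefSeq (build GRCr8). Of 22 members of the list with a promoter in the table, 14 held a match (63.6%), as did 15.4% of 27457 promoters, and 11 of the 15 members that rose and had a promoter in the table held one. Hspa4l, Hspb8 and Dnajb6, which did not pass, also held one. The windows of Hspd1 and Hspe1, which run apart from a shared region of chromosome 9, overlap and hold the same match. The 250 bases before the start are printed for Hsph1, Bag3 and Hspe1, members with an array of matches or a lone one, with the matches in capitals. A match is a description of these letters and does not show binding.
Hsph1 (chr12:10427118-10427367, plus strand): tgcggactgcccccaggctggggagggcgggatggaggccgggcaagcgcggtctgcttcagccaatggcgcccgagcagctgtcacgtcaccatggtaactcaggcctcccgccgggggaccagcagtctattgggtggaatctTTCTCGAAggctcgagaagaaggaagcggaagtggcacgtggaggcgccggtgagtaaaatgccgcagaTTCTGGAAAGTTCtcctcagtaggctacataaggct
Bag3 (chr1:192533210-192533459, plus strand): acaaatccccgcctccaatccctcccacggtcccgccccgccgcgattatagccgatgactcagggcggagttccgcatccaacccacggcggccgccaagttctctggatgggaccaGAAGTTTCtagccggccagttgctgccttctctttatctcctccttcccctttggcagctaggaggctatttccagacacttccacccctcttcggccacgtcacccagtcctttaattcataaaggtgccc
Hspe1 (chr9:64084077-64084326, plus strand): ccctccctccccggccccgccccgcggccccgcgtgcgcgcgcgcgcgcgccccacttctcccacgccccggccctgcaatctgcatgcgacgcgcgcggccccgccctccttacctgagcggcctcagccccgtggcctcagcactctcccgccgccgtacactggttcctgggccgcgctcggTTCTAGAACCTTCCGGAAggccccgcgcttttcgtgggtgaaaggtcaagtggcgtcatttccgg
In Hsph1 matches begin 105, 36 and 31 bases before the start, in Hspe1 at 65, 60 and 55 bases before it, and in Bag3 at 132 bases before it. Of the other motifs, the STAT element TTCNNNGAA was in 5 of 21 promoters of the acute phase list (23.8%) and 8.68% of all, and the E-box CACGTG was in 3 of 18 promoters of the clock list (16.7%) and 6.65% of all. Among members that passed and had a promoter, 0 of 1 on the acute phase list and 1 of 4 on the clock list held the motif. The sterol element TCACNCCAC, searched after the values were known, was in 0 of 20 promoters of the cholesterol list and 1.13% of all, which says only that these letters are not in these windows.

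Genes of ribosome biogenesis were higher. Of 55 nucleolar factors and subunits of RNA polymerase I, 45 rose (81.8%) and none fell, with a median of 0.94. The shares of all genes with a mean level of at least 5 were 10.8% and 5.79%. Nop58, a core protein of the small nucleolar particles that methylate ribosomal RNA, had 12.28, 12.58 and 12.55 in the reperfused lobes against 9.97, 9.4 and 8.99 in the shams, and rose by 3.01 (SE 0.251, q = 0.00525). Its partner Nop56 had 11.48, 11.4 and 11.53 against 9.0, 8.99 and 8.35, a rise of 2.69 (SE 0.189, q = 0.00477). Nop2, a methyltransferase of the large subunit's RNA, rose by 1.78 (SE 0.142, q = 0.00515). The calls of these 3 genes held whichever array was left out. Bysl, a factor of the small subunit, rose by 1.84 (SE 0.245, q = 0.0117), with q-values of 0.0508 to 0.0546 without reperfused replicate 2, sham replicate 2 or sham replicate 3. Nop10, which belongs to another class of small nucleolar particle, had -0.24. The list had 16 higher members without sham replicate 2, 19 without reperfused replicate 2 and 24 without sham replicate 3.

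The machinery of translation moved in the same direction by smaller amounts. Its shares stand beside 10.8% higher and 5.79% lower of all genes with a mean level of at least 5. Of 69 cytosolic ribosomal proteins, 27 rose (39.1%) and 1 (Rplp2, -0.65) fell (1.45%), with a median of 0.50. Rplp2 was called in 1 of the 6 fits that left out an array, and with median-centred arrays 16 members were higher and 0 lower. Rpl13, of the large subunit, had 13.96, 14.16 and 13.88 against 12.94, 13.14 and 12.78, a rise of 1.05 (SE 0.127, q = 0.00973). Of 37 initiation and elongation factors, 18 rose (48.6%) and none fell, and after quantile normalization 10 were higher. Eif3a, the scaffold of initiation factor 3, had 13.63, 13.72 and 13.87 against 12.56, 12.46 and 12.3, and rose by 1.30 (SE 0.109, q = 0.00525). Eif2s1, the subunit of initiation factor 2 that stress kinases phosphorylate, rose by 1.14 (SE 0.128, q = 0.00845). Of 17 aminoacyl-tRNA synthetases 5 rose (29.4%), with Rars1, for arginine, at 1.85 (SE 0.166, q = 0.00559). These counts leaned on single arrays. Without reperfused replicate 3 they were 46 ribosomal proteins, 25 factors and 8 synthetases. Without reperfused replicate 1, reperfused replicate 2, sham replicate 1, sham replicate 2 and sham replicate 3, in that order, they were 7, 3, 9, 3 and 4 ribosomal proteins, 9, 5, 8, 4 and 6 factors, and 2, 2, 3, 1 and 2 synthetases. Many probe sets of ribosomal proteins may also bind transcripts of their pseudogenes, and their values are uncertain for that reason.

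Proteasome subunits had a median of 0.79, and 14 of 41 rose (34.1%) and none fell. The shares of all genes with a mean level of at least 5 were 10.8% and 5.79%. Psmd14, the deubiquitinase of the proteasome lid, had 11.85, 12.18 and 11.32 in the reperfused lobes against 10.28, 10 and 10.1 in the shams, a rise of 1.66 (SE 0.222, q = 0.0117). Adrm1, a ubiquitin receptor, rose by 1.26 (SE 0.159, q = 0.0102). The subunits of the immune activator, Psme1 and Psme2, had -0.18 and -0.09. The number of higher subunits was 31 without reperfused replicate 3 and 0 without sham replicate 2, where Psmd14 and Adrm1 had q-values of 0.0611 and 0.0544. Psmd14 also missed the threshold without sham replicate 3 (q = 0.0502). It was 4, 3, 7 and 1 without reperfused replicates 1 and 2 and sham replicates 1 and 3.

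Of 27 splicing kinases and SR factors, which choose exons during pre-mRNA splicing, 18 rose (66.7%) and none fell, with a median of 0.71. The shares of all genes with a mean level of at least 5 were 10.8% and 5.79%. Srsf5 had 10.74, 10.79 and 10.64 in the reperfused lobes against 9.36, 9.42 and 8.81 in the shams, a rise of 1.53 (SE 0.175, q = 0.00866). Srsf7 had 7.87, 8.27 and 8.07 against 6.8, 6.52 and 6.58, a rise of 1.44 (SE 0.133, q = 0.00579). In the unoperated livers Srsf5 was at 11.65 to 11.68 and Srsf7 at 7.89 to 7.91. The shams were thus below the unoperated livers, with differences of -2.47 (q = 0.000787) for Srsf5 and -1.27 (q = 0.000865) for Srsf7, and 17 of the 27 members lay lower in these shams than in unoperated livers. Both comparisons share the 3 sham arrays. Against the 12 shams of all times, 10 members were higher and 1 lower, and Srsf5 had -0.16. The list had 8 higher members without reperfused replicate 2 or sham replicate 2, 9 without sham replicate 3 and 11 without reperfused replicate 1.

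Of 44 genes of actin, tubulin, keratin and annexin proteins, 13 rose (29.5%) and 1 fell (2.27%), with a median of 0.70. The gene that fell was Myl9, a myosin light chain (-0.87). Of all genes with a mean level of at least 5, 10.8% were higher and 5.79% lower. In the shams themselves 10 of the 44 were lower than in unoperated livers and 1 was higher, with a median of -0.29. Krt8, which pairs with Krt18 to form the keratin filaments of hepatocytes, had 14.34, 14.5 and 16.29 in the reperfused lobes against 11.41, 10.55 and 11.29 in the shams. It rose by 3.96 (SE 0.551, q = 0.0125), and Krt18 rose by 2.52 (SE 0.398, q = 0.0173), a call lost without any 1 of the shams. Tubb2a, a beta-tubulin, had 10.03, 10.71 and 9.66 against 6.94, 6.21 and 6.43, a rise of 3.61 (SE 0.307, q = 0.00543), with the unoperated livers at 10.31 to 10.58. Actg1, a cytoplasmic actin, had 17.67, 16.89 and 18.39 against 14.84, 14.28 and 14.48, a rise of 3.11 (SE 0.379, q = 0.0097). Tubb6, a further beta-tubulin, rose by 2.82 (SE 0.527, q = 0.0273), and Cavin3, a coat protein of caveolae outside the list, rose by 2.86 (SE 0.523, q = 0.0259). Of the list's 44 members, 38 were higher in reperfused replicate 3 than in the mean of the other reperfused arrays. None of the 7 cholangiocyte markers passed, and their differences ran from -0.16 for the biliary keratin Krt7 to 1.92 for the adhesion molecule Epcam, with Spp1, osteopontin, at 1.84 and Krt19 at 0.18. The list had 2 higher members without sham replicate 2 and 8 without sham replicate 1 or 3. Krt8 and Actg1 had q-values of 0.0626 and 0.0531 without sham replicate 2, Tubb6 had 0.0795 to 0.108 without any 1 sham or reperfused replicate 2, and Cavin3 had 0.0572 to 0.0877 without reperfused replicate 1 or 2 or sham replicate 2 or 3.

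**Figure D4:**
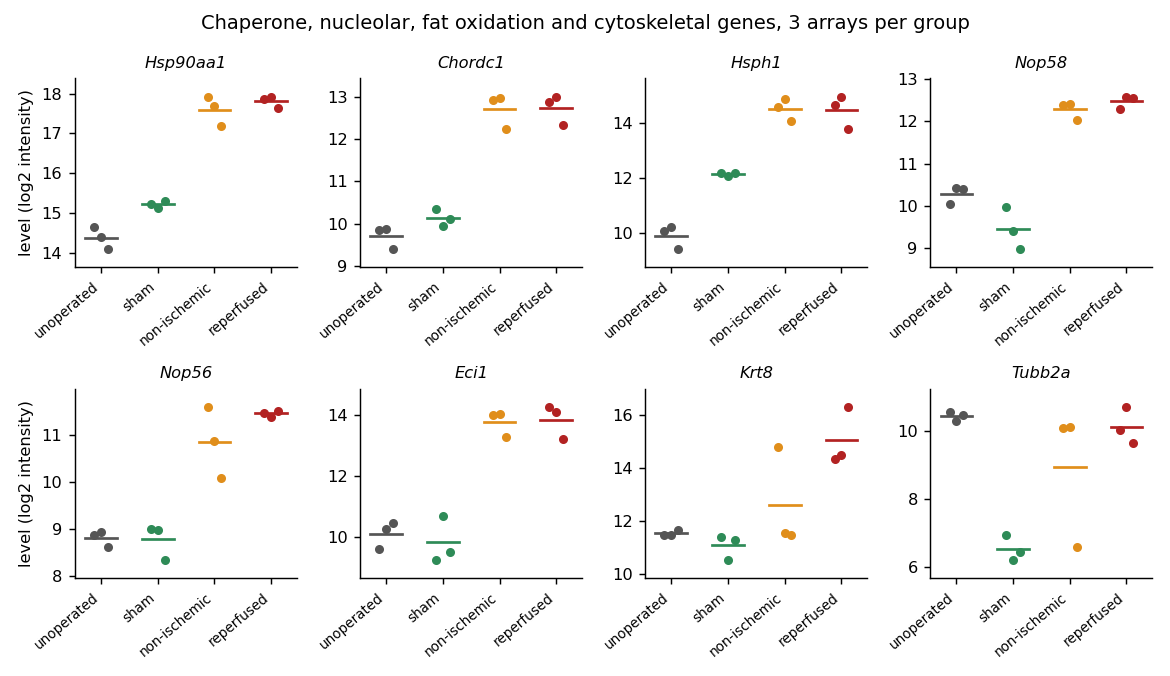
Log2 intensity (y axis) of 8 genes that rose, in 3 arrays each of unoperated livers, 6 hr shams, 6 hr non-ischemic lobes and 6 hr reperfused lobes (x axis), with points for arrays and a bar for the mean. For Hsp90aa1 the reperfused lobes sit between 17.63 and 17.92 and the shams between 15.12 and 15.3, while for Tubb2a the reperfused lobes (9.66 to 10.71) sit near the unoperated livers.

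Transcripts of some genes of glucose and amino acid metabolism were lower, while most members of these lists did not pass. Of 26 genes of gluconeogenesis and fasting, 8 fell (30.8%) and 1 (Insig2, 0.90) rose (3.85%), with a median of -0.82. The shares of all genes with a mean level of at least 5 were 5.79% and 10.8%. Insig2 was called in 1 of the 6 fits that left out an array. In the shams themselves 9 of the 26 list members were lower than in unoperated livers and 3 higher, with a median of -0.34. Pklr, the liver pyruvate kinase, had 11.59, 11.5 and 10.87 in the reperfused lobes against 14.59, 14.59 and 14.61 in the shams, and fell by 3.28 (SE 0.194, q = 0.00477). Pdk2, a kinase that switches off pyruvate dehydrogenase, had 12.57, 12.54 and 12.48 against 14.57, 15.06 and 14.69, and fell by 2.24 (SE 0.139, q = 0.00477). Pklr acts in glycolysis and not in glucose release. Of the enzymes of glucose release, Slc37a4, the glucose-6-phosphate carrier, fell by 1.22 (SE 0.153, q = 0.0102, and q = 0.0531 without sham replicate 2). G6pc1, the glucose-6-phosphatase, had 10.64, 11.67 and 7.14 against 12.13, 12.41 and 13.81. Its groups did not overlap, as in 33.7% of all coding probe sets, and its difference of -2.97 did not pass (q = 0.178). The number of lower members was 2 without sham replicate 2, 3 without reperfused replicate 2 and 4 without sham replicate 1 or 3.

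Of 41 genes of the urea cycle and amino acid breakdown, 9 fell (22%) and none rose, with a median of -0.42. The shares of all genes with a mean level of at least 5 were 5.79% and 10.8%. Otc, the ornithine carbamoyltransferase of the urea cycle, had 14.18, 13.9 and 14.26 in the reperfused lobes against 15.75, 15.63 and 15.52 in the shams, and fell by 1.52 (SE 0.123, q = 0.00525). Mat1a, the liver's methionine adenosyltransferase, fell by 1.63 (SE 0.225, q = 0.0124, and q = 0.0649 without sham replicate 2). Cps1, the first enzyme of the cycle, had -0.32. The list had 2 lower members without sham replicate 2 and 5 without reperfused replicate 2. Slc3a2, the shared heavy chain of several amino acid transporters, rose by 1.59 (SE 0.0822, q = 0.00348).

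Of 20 bile acid genes, 4 fell (20%) and none rose, beside 5.79% and 10.8% of all genes with a mean level of at least 5. In the shams themselves 8 of the 20 were lower than in unoperated livers and 3 higher, with a median of -0.66. Cyp7a1, the rate-limiting enzyme of bile acid synthesis, had 13.24, 16.2 and 13.08 in the reperfused lobes against 17.93, 17.98 and 17.94 in the shams. The shams were tight and high, the reperfused lobes were spread, and the difference was -3.78 (SE 0.816, q = 0.0407). This call was lost without any 1 array other than reperfused replicate 2, with q-values of 0.0567 to 0.132. Amacr, a racemase of bile acid intermediates, fell by 3.17 (SE 0.413, q = 0.011, and q = 0.0573 without sham replicate 2), and Slc10a1, the hepatocyte's uptake carrier of bile salts, fell by 0.87 (SE 0.156, q = 0.0246). Slc10a1 had q-values of 0.0659, 0.0909 and 0.0825 without reperfused replicate 1, sham replicate 2 and sham replicate 3. Without sham replicates 1, 2 and 3 the list had 2, 0 and 1 lower members, and without reperfused replicate 1 it had 1.

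Of 37 cytochrome P450 enzymes and their reductase, 6 fell (16.2%) and 1 rose (2.7%). The shares of all genes with a mean level of at least 5 were 5.79% and 10.8%. Cyp2c11, the main male-specific P450 of rat liver, had 15.18, 16.08 and 15.96 against 17.89, 17.66 and 17.86, and fell by 2.06 (SE 0.243, q = 0.00933). Por, the reductase that feeds electrons to these enzymes, fell by 1.21 (SE 0.183, q = 0.0154), although it was higher in the shams than in the unoperated livers by 3.26 (q = 0.000632). Its q-value was 0.0541 to 0.0722 without sham replicate 1, sham replicate 2 or reperfused replicate 2. The list had 2, 2 and 3 lower members without sham replicates 1, 2 and 3. Of 68 subunits of the respiratory chain, 6 fell (8.82%) and 1 rose (1.47%), near the 5.79% and below the 10.8% of all genes with a mean level of at least 5, with a median of -0.19. The list had 7 lower and 4 higher members without reperfused replicate 3, and 2 lower and 2 higher against the 12 shams of all times, with a median of -0.03 in both. Ndufa1 of complex I had 9.65, 9.78 and 9.64 against 10.78, 10.92 and 10.6, a fall of 1.08 (SE 0.107, q = 0.00636), and the electron carrier Cycs, cytochrome c, rose by 0.88 (SE 0.163, q = 0.0264). Cycs had q-values of 0.0572 to 0.0909 without sham replicate 1, sham replicate 2, reperfused replicate 1 or reperfused replicate 2. The number of lower subunits was 2 without reperfused replicate 2 or any 1 of sham replicates 1 and 2, and 3 without sham replicate 3.

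None of 34 NF-kB targets, chemokines and cytokines passed, although their median was 0.62 and 31 were above 0. In all, 32 of the 34 were higher in reperfused replicate 3 than in the mean of the other reperfused arrays, with a median excess of 1.58. Ccl2, which draws monocytes, had the greatest difference of the list (3.50, SE 1.99, q = 0.33), from 5.77, 7.85 and 13.94 in the reperfused lobes against 6.32, 5.34 and 5.41 in the shams. The groups overlapped. Icam1, an adhesion molecule for leukocytes named here after its values were seen, had 10.79, 10.58 and 13.12 against 9.52, 9.73 and 9.56. Its groups did not overlap, as in 33.7% of all coding probe sets, and it did not pass (q = 0.133). Of the list, 2 members were higher without reperfused replicate 3, 6 in a fit to all 39 arrays and 9 against the 12 shams of all times. None of 38 immediate early genes passed, and 34 of them were higher in reperfused replicate 3 than in the mean of the other reperfused arrays. None of 24 interferon-stimulated genes passed, with a median of 0.58, and 3 did without reperfused replicate 1. Tnfrsf1b, the second receptor of tumor necrosis factor, had 11.56, 11.35 and 12.01 against 9.85, 9.87 and 9.61 and rose by 1.86 (SE 0.185, q = 0.00636).

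The list of acute phase plasma proteins also holds genes of other proteins, such as the transferrin receptor Tfrc. Its members had differences on both sides of 0, with a median of 0.03. They ran from -1.26 for the iron hormone Hamp to 2.42 for Tfrc, neither of which passed. Without reperfused replicate 3, 2 of the 24 were higher and 3 lower, and against the 12 shams of all times 5 were higher. In the main test 1 rose (4.17%) and none fell, beside 10.8% and 5.79% of all genes with a mean level of at least 5. The gene that rose was Orm1, which encodes an acid glycoprotein of plasma. It had 19.3, 19.07 and 18.67 in the reperfused lobes against 16.97, 17.25 and 18.14 in the shams. The difference was 1.56 (SE 0.327, q = 0.0372), and the shams were themselves above the unoperated livers by 2.67 (q = 0.00452). The call was lost without sham replicate 1 or 2 or reperfused replicate 1 or 2, with q-values of 0.0964 to 0.132. Lcn2, an iron-sequestering protein, had 12.08, 10.02 and 9.41 against 7.74, 8.37 and 9.53, which overlapped (q = 0.177). Serpina6, the plasma carrier of corticosteroids, had 13.6, 13.45 and 13.79 against 15.14, 15.6 and 15.6, and fell by 1.83 (SE 0.162, q = 0.00557).

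Of 35 genes of liver regeneration and growth factors, 1 rose (2.86%) and 3 fell (8.57%), beside 10.8% and 5.79% of all genes with a mean level of at least 5, with a median of 0.14. The riser was Tnfrsf1b. Without reperfused replicate 3 there were 3 higher and 5 lower, without sham replicate 1 or 2 there were 0 lower, and without any 1 of the other arrays 1 was lower. Of those that fell, Egfr, the receptor of epidermal growth factor, fell by 1.94 (SE 0.297, q = 0.0159) and Igfbp3, a carrier of insulin-like growth factors, fell by 1.71 (SE 0.278, q = 0.0188). Cdkn1a, the cell cycle inhibitor p21, had 8.02, 8.54 and 10.08 in the reperfused lobes against 5.59, 6.25 and 5.87 in the shams, a rise of 2.97 (SE 0.523, q = 0.0236), with the unoperated livers at a mean of 8.09. Against the 12 shams of all times the difference of Cdkn1a was 0.17 (q = 0.94). Of the 37 measured genes of the cell cycle list, 1 rose (2.7%), Cdkn1a, and 2 fell (5.41%), Ccnb2 and Ccne1, by 0.82 and 0.39. In the shams themselves 18 of the 37 were lower than in unoperated livers and 3 higher, with a median of -0.51. Sesn1, a target of p53 that restrains growth signaling, had 6.7, 6.72 and 6.87 against 8.43, 8.73 and 8.32 and fell by 1.73 (SE 0.128, q = 0.00477). The call of Sesn1 held whichever array was left out. Egfr had q-values of 0.0503 to 0.067 without sham replicate 1, sham replicate 2 or reperfused replicate 1, Igfbp3 had 0.0553 to 0.0767 and Cdkn1a 0.067 to 0.0829 without any 1 sham or reperfused replicate 2, and Ccnb2 had 0.0614 to 0.12 without any 1 array. Ccne1 passed in 1 of these 6 fits.

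Few members of the other stress lists passed. Of 29 Nrf2 antioxidant genes 4 rose (13.8%) and none fell, beside 10.8% and 5.79% of all genes with a mean level of at least 5. Txnrd1, a thioredoxin reductase, rose by 1.25 (SE 0.147, q = 0.00933) and Gclc, which starts glutathione synthesis, by 1.63 (SE 0.286, q = 0.0236). Neither was called without sham replicate 2, and Gclc was also lost without sham replicate 3 or reperfused replicate 2. Of 30 HIF targets, genes induced by low oxygen, 3 rose (10%) and 2 fell (6.67%), shares near the 10.8% and 5.79% of all genes with a mean level of at least 5, and there were 7 higher and 3 lower without reperfused replicate 3 and 8 and 3 against the 12 shams of all times. Among those that rose was Eno1, a glycolytic enolase, at 0.74 (q = 0.00933). Of 18 p53 targets 2 rose (11.1%) and 1 fell (5.56%), again near the shares of all genes at that level. Those that rose were Cdkn1a and the death receptor Tnfrsf10b (1.23, q = 0.00988, and q = 0.0523 without sham replicate 2), and Sesn1 fell. None of 26 chaperones of the endoplasmic reticulum passed, with a median of 0.12, and 7 were higher without reperfused replicate 3. Of 25 genes of the integrated stress response 1 rose and 1 fell (4% each), and of 23 amino acid transporters 1 rose (4.35%) and 3 fell (13%). In both lists the share that rose was below the 10.8% of all genes with a mean level of at least 5, of which 5.79% fell.

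Of 22 circadian clock genes, 1 rose (4.55%) and 3 fell (13.6%), beside 10.8% and 5.79% of all genes with a mean level of at least 5, and the median was 0.04 (-0.11 after quantile normalization). Clock, a core activator, had 11.72, 11.97 and 11.13 in the reperfused lobes against 10.3, 9.64 and 10.06 in the shams, a rise of 1.60 (SE 0.261, q = 0.019). Cry2, a core repressor, had 6.65, 6.68 and 7.12 against 8.15, 8.32 and 8.59, a fall of 1.54 (SE 0.175, q = 0.00857), and Nr1d2, a repressor of the activators, fell by 2.65 (SE 0.427, q = 0.0185). The partner of Clock, Bmal1, had 9.32, 9.7 and 6.03 against 6.45, 5.83 and 5.81. Its groups overlapped and its difference of 2.32 did not pass (q = 0.19), with reperfused replicate 3 among the shams. In the unoperated livers Bmal1 had a mean of 9.81, and the shams were below them with a difference of -3.77 (q = 0.000787). Clock had q-values of 0.0565 to 0.0719 without reperfused replicate 1, reperfused replicate 2, sham replicate 2 or sham replicate 3, and Nr1d2 had 0.0517 to 0.0775 without reperfused replicate 1 or any 1 sham. Without reperfused replicate 3, 6 members were lower and 3 higher, and against the 12 shams of all times 1 was lower. The number of lower members was 1 without reperfused replicate 1 or any 1 sham. The time of day at which each animal was killed is not given in the sources used here beyond the hour of surgery, and the part of the clock in these values was not tested.

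No gene passed the test between the lobes of the clamped animals. Of 23409 probe sets, 0 passed between the 6 hr reperfused and the 6 hr non-ischemic lobes (0%) by limma, with 754 at an unadjusted p under 0.05, and 0 passed with the animal as a block, with 1223 at an unadjusted p under 0.05. None of the 106 named genes passed. Scd had 6.11, 7.41 and 7.82 in the non-ischemic lobes, a difference between lobes of -0.23 (SE 0.641, q = 0.968). Hsp90aa1 had 17.9, 17.69 and 17.18, a difference of 0.21 (SE 0.2, q = 0.951), and Eci1 had 14.01, 14.02 and 13.29, a difference of 0.08 (SE 0.338, q = 0.979). The median difference between lobes was -0.11 over the cholesterol list, 0.03 over the heat shock list and 0.40 over the cytoskeleton list. Krt8 was less even, at 14.79, 11.55 and 11.49 in the non-ischemic lobes, which gave a difference of 2.43 with an SE of 1.02 (q = 0.951). Tubb2a had 10.11, 10.12 and 6.59, with non-ischemic replicate 3 at the sham level. With 3 animals, a difference between lobes of this size could not be told from the spread.

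Part of the 6 hr pattern was not there at 2 hr. The change of the difference between reperfused lobes and shams from 2 to 6 hr was called in 485 probe sets upward (2.07%) and 180 downward (0.769%) by limma over 12 arrays, 2.84% in all. Chordc1 was level with its shams at 2 hr, with means of 9.98 ± 0.169 (SD, n = 3) and 9.92 ± 0.196, and its difference grew by 2.54 to 6 hr (q = 0.0056). Hsp90aa1 was 0.91 above its shams at 2 hr and its difference grew by 1.68 (q = 0.0245). Pdk2 was 0.52 below its shams at 2 hr and its difference changed by -1.73 (q = 0.00593). Sesn1 turned from 0.65 above its shams to 1.73 below, a change of -2.38 (q = 0.00818). The sham mean of Srsf7 went from 7.77 ± 0.215 at 2 hr to 6.63 ± 0.145 at 6 hr and that of the reperfused lobes from 7.68 ± 0.0426 to 8.07 ± 0.199 (change of the difference 1.52, q = 0.00743). Of the 27 members of the splicing list, 12 passed this test upward and none downward. Nop58 had 11.55 ± 0.559 in the 2 hr shams and 9.46 ± 0.495 in the 6 hr shams, beside 12.22 ± 0.153 and 12.47 ± 0.164 in the reperfused lobes (change 2.35, q = 0.0198). In the cholesterol list 3 members passed downward, with a median change of -1.76. The total of called probe sets was 1097 without 6 hr reperfused replicate 3, and 176 without 6 hr sham replicate 2. Without any 1 of the other arrays it was between 203 and 431, except for 2 hr sham replicate 2 (807) and 2 hr reperfused replicate 1 (465).

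**Figure D5:**
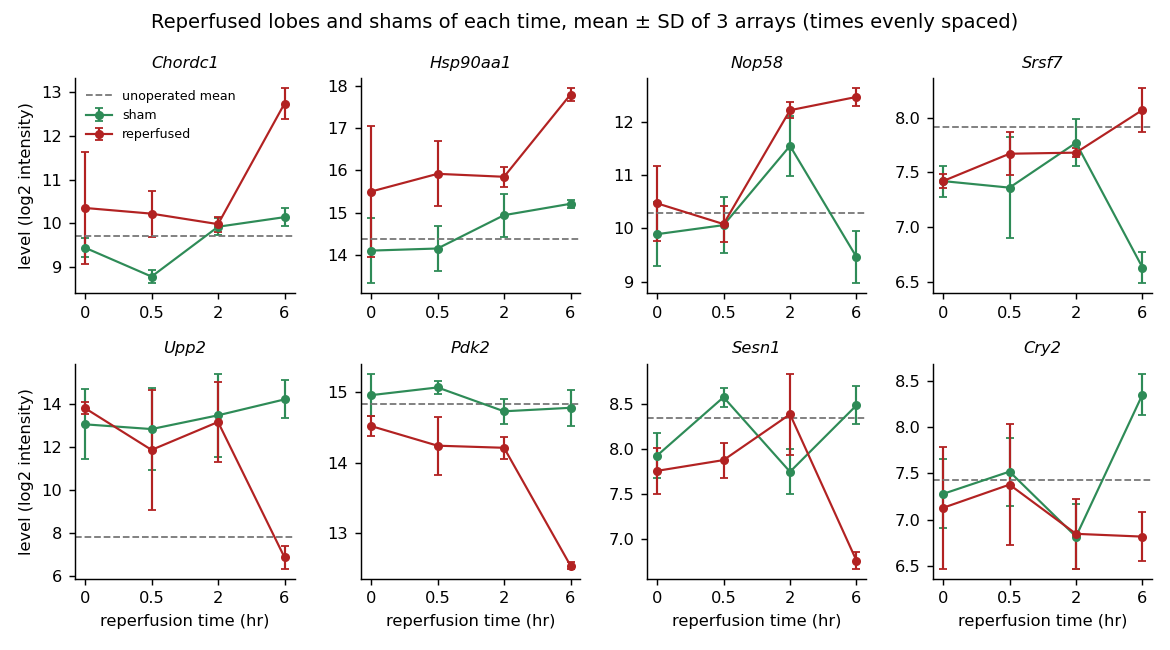
Mean ± SD log2 intensity (y axis) of 8 genes in reperfused lobes (red) and shams (green), 3 arrays each, at 0, 0.5, 2 and 6 hr (x axis, evenly spaced), with the unoperated mean as a dashed line. Chordc1 in the reperfused lobes goes from 9.98 at 2 hr to 12.74 at 6 hr while the shams stay at 9.92 and 10.14, and Srsf7 in the shams goes from 7.77 to 6.63.

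The 6 hr shams differed from unoperated livers themselves, in 1285 probe sets upward (5.49%) and 1541 downward (6.58%) by limma. The total of 2826 was 1569, 1638 and 1874 without unoperated replicates 2, 3 and 1, and 1675 without sham replicate 2. Of the cholesterol list, 2 members were higher and 5 lower in these shams than in unoperated livers. The sham minus unoperated difference was 0.14 (q = 0.775) for Fdft1, 0.62 (q = 0.203) for Sqle and 0.01 (q = 0.984) for Lpin1, and the reperfused means of these genes were below both groups. For Chordc1 it was 0.43 (q = 0.143) and for Eci1 -0.28 (q = 0.723), and the reperfused means were above both. For Tubb2a (-3.93, q = 0.000323), Plin2 (-2.22, q = 0.00174) and Clock (-1.74, q = 0.00188) the shams lay below the unoperated livers, and for Cyp7a1 (3.01, q = 0.0173) and Nr1d2 (1.98, q = 0.0146) above them. Of the 106 named genes, 48 passed this test in 1 direction or the other. Since both tests use the same 3 shams, a deviation of these shams enters both.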

How the data were processed

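Total liver RNA was hybridised to Affymetrix Rat Transcriptome arrays, 1 array per sample. The authors summarised the probes with a signal-space-transformed form of RMA in Affymetrix Expression Console 1.0, a step that stretches the scale, and deposited linear intensity values, which were converted to log2 here and not normalized again. Depth has no meaning for arrays, and the number of arrays limits the precision. No detection calls or scan dates were used. The annotation gave 1 symbol to 19778 of the 23409 coding probe sets, more than 1 to 419 and none to 3212. A gene of a list was represented by its probe set with the highest mean.

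Groups came from the sample titles. Differences were fitted with limma 3.58.1 (lmFit and eBayes, two-sided) in R 4.3.3 on the 6 arrays alone, with Benjamini-Hochberg q-values over all probe sets and a threshold of 0.05, and the fit was tested on simulated data. The lobes were compared with and without the animal as a block. Same-numbered lobes were taken as those of the same rat, which the sample titles do not state. Their deviations correlated at 0.20, 0.77 and 0.29, and those of differently numbered lobes at -0.45 to 0.09. The change from 2 to 6 hr was an interaction term over 12 arrays. Named genes were the 12 greatest rises and 12 greatest falls with 1 symbol, groups that did not overlap and a mean log2 of at least 5 in the higher group, and up to 4 called members of each list, 106 in all. Any further gene was picked with its values known. The members, the 31 gene lists and the 8 marker lists were chosen with earlier results of these data known. Alternatives were filters on the interquartile range and on low values, quantile normalization, median centring, a fit to all 39 arrays, limma's trend and robust options, a replicate block, leaving out each array and, for the main comparison, the 12 shams of all times. Alternatives for the list counts were added after seeing the data.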

Additional observations from a re-analysis of the deposited data

Results flagged for a closer look

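For 21 named genes the difference between reperfused lobes and shams was not the same at 2 and at 6 hr by limma's test of the change itself. The change is given as the 6 hr difference minus the 2 hr difference, in log2 units. Among genes of protein folding and synthesis it was 2.54 for Chordc1, 1.68 for Hsp90aa1, 2.35 for Nop58, 1.94 for Nop56, 1.25 for Eif3a, 1.04 for Eif2s1 and 1.46 for Rars1. Among splicing factors it was 1.71 for Srsf5, 1.52 for Srsf7 and 0.94 for Srsf3.

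Downward changes were found in metabolic and signaling genes. They were -7.04 for Upp2, -3.51 for Hykk, a kinase of hydroxylysine breakdown, -3.29 for Socs2, -2.38 for Sesn1, -1.73 for Pdk2 and -1.45 for Serpina6. The clock genes changed in opposite directions, by 1.62 for Clock and -1.57 for Cry2. Slc34a2 changed by 3.67.

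Of the cell type markers, Emcn, a sialomucin of endothelium, changed by -0.76 and Pdgfrb, a growth factor receptor of stellate cells, by 1.60. Their part in the other results was not tested.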

How the results depend on the processing

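The 2265 probe sets called between reperfused lobes and shams became 4198 in a fit to all 39 arrays, 3895 against the 12 shams of all times, and 403 to 3295 when 1 array was left out. With the replicate number as a block 919 were called. Same-numbered reperfused and sham arrays deviated with correlations of 0.06, -0.14 and 0.03, so the numbers do not pair these animals. The 665 changes from 2 to 6 hr became 414 after quantile normalization, 419 in the trended and robust fit and 1324 in the fit to all 39 arrays, and 176 to 1097 when 1 array was left out. The 2826 differences between shams and unoperated livers became 1569 to 2084 when 1 array was left out. Between the lobes 0 were called in each setting run, with 482 to 1713 at an unadjusted p under 0.05 where no filter was set. A share of 0.05 of the tests is expected there with no difference between lobes. The difference of Srsf5 turned from 1.53 to -0.16 against the 12 shams of all times. Of 106 named genes, 36 were called whichever array was left out, and 68 were not called without sham replicate 2. The cause of these changes was not tested. With 3 arrays a group, q-values depend on the spread of few animals.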
